A study of Mus musculus with 12 samples.

Results

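The genes described here are the 8 mouse collagen genes whose products lie in or beside basement membranes: Col4a1, Col4a2, Col4a3, Col4a4, Col4a5 and Col4a6, which encode the chains of type IV collagen, and Col15a1 and Col18a1, which encode the core proteins of collagens XV and XVIII. They were taken by gene symbol from a table of 40760 genes, and each symbol was found once. The data are bulk RNA-seq of Pdgfra+ (CD140a+) cells sorted from the lungs of young adult male mice of C57BL/6 background (the age by the study's methods, not by the labels). The study asked what loss of Pear1, a membrane receptor gene, changes in these cells in a bleomycin model of pulmonary fibrosis. There were 4 groups of 3 libraries: WT vehicle, WT bleo, Pear1-/- vehicle and Pear1-/- bleo, where bleo is the drug bleomycin, given as an aerosol into the trachea. The labels give neither a dose nor a day for these libraries, and the number of mice behind each library is not stated, so the p-values measure the spread between libraries, which may be technical. The Pear1-/- allele is a knockout-first gene trap inserted in an intron of Pear1 and is present in every cell of the mouse, not only in the sorted cells.

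A basement membrane is the thin sheet of matrix that underlies epithelium and endothelium and surrounds muscle and fat cells. Its backbone is a network of type IV collagen, in which 3 chains wind into a trimer and trimers join end to end and through their heads. The chains of Col4a1 and Col4a2 form the trimer found in nearly all basement membranes, those of Col4a3, Col4a4 and Col4a5 form the trimer of kidney glomeruli and alveoli, and those of Col4a5 and Col4a6 form the third, known from skin and smooth muscle. Mutations of COL4A3, COL4A4 or COL4A5 cause Alport syndrome, and the chain of COL4A3 is the target of antibodies in Goodpasture disease of kidney and lung. Collagens XV and XVIII carry sugar chains and sit at the outer face of basement membranes, and cleavage of collagen XVIII releases endostatin, an inhibitor of vessel growth.

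Between 6702948 and 10447101 reads per library were counted on genes, and a floor of 3 counts corresponded to between 0.287 and 0.448 CPM (reads of a gene per total, scaled to a common sum), which covers counting error only. Pairs of libraries were compared by chi-square over genes divided by its degrees of freedom, where 1 means counting noise only. It lay between 1.37 and 5.46 within the other 3 groups and was 1.68 between WT vehicle replicates 1 and 3, but 25.2 and 26 between WT vehicle replicate 2 and each of them. Against the 3 libraries labelled Pear1-/- vehicle, WT vehicle replicate 2 gave between 1.81 and 2.92, whereas replicates 1 and 3 gave between 27.5 and 32.5. WT vehicle replicate 2 was therefore closer to the libraries of the other genotype label than to its own group, and where leaving it out changed whether one of the 8 genes passed a threshold, both values are given. Pear1 itself had 546.5 ± 28.8 and 519.7 ± 24.0 normalised counts in the vehicle groups of WT and Pear1-/-, and 253.7 ± 14.0 and 357.2 ± 14.2 in their bleo groups (mean ± SD, n = 3). Between the labels its count overlapped in vehicle, where the test did not pass (adjusted p = 0.47), and was higher in Pear1-/- bleo than in WT bleo, but a count over the whole gene includes exons before the trap and does not check the insertion. Below, Pear1-/- vehicle and Pear1-/- bleo mean the libraries labelled so, in every statement of direction between genotypes.

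The 8 genes divided into those that were kept or raised in bleo, those that fell, and Col18a1, which fell only under the WT label. Col4a1 and Col4a2, the most abundant chains, were higher in Pear1-/- bleo than in any other group, by 1.71-fold and 1.77-fold over WT bleo. Col4a3, Col4a4, Col4a5, Col4a6 and Col15a1 fell with bleo under both genotype labels and were lowest in Pear1-/- bleo, and Col4a6 showed the widest range, 8.41-fold lower in Pear1-/- bleo than in Pear1-/- vehicle. Col18a1 fell 2.11-fold in WT bleo, while in Pear1-/- bleo its level overlapped that of WT vehicle. The unit is the normalised count, which is the deposited read count of a gene divided by a size factor that puts the libraries on a common scale. In bulk samples such as these, fewer cells of a type and less RNA per cell cannot be told apart.

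**Figure D1:**
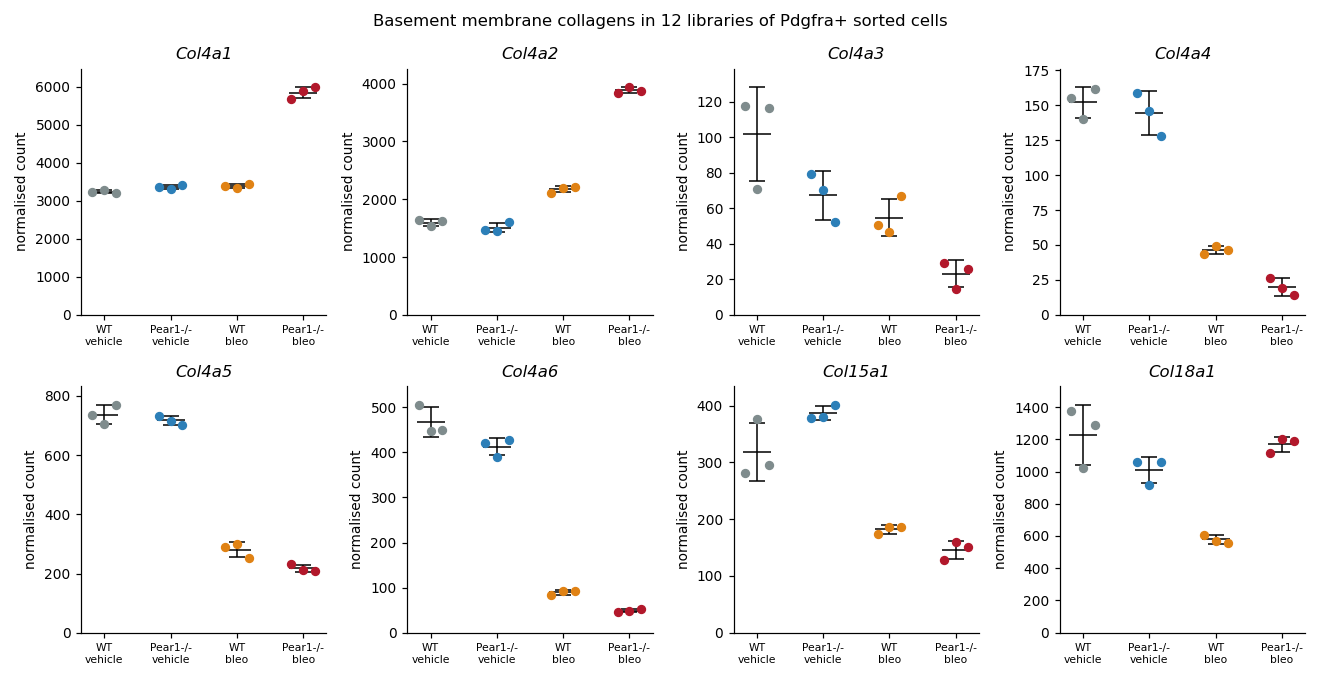
Normalised counts of the 8 basement membrane collagen genes (vertical axes, each starting at 0) in the 4 groups (horizontal axes), with 1 point per library and bars for the mean and SD of 3 libraries. Col4a1 and Col4a2 stand highest in Pear1-/- bleo, at 5850 and 3887 normalised counts on average, Col4a3 to Col4a6 and Col15a1 stand lowest there, and Col18a1 is lowest in WT bleo, at 578.3.

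The 6 type IV genes lie in the genome as 3 pairs that start head to head, and the DNA between the starts is shown here because the members of a pair did not always move alike. On GRCm38, Col4a1 (ENSMUSG00000031502, chromosome 8, 11198423 to 11312826, minus strand) and Col4a2 (ENSMUSG00000031503, chromosome 8, 11312805 to 11449287, plus strand) share 22 bases of their first exons. Col4a4 (ENSMUSG00000067158, chromosome 1, 82448423 to 82586849, minus strand) and Col4a3 (ENSMUSG00000079465, chromosome 1, 82586921 to 82722059, plus strand) have 126 bases between the starts of their coding transcripts, of which the first 71 hold no annotated exon. Col4a6 (ENSMUSG00000031273, chromosome X, 141165403 to 141474076, minus strand) and Col4a5 (ENSMUSG00000031274, chromosome X, 141475385 to 141689234, plus strand) are 1308 bases apart. Col15a1 (ENSMUSG00000028339, chromosome 4, 47208161 to 47313167, plus strand) and Col18a1 (ENSMUSG00000001435, chromosome 10, 77052178 to 77166548, minus strand) stand alone. The library kit does not mark strand, so reads from the bases that Col4a1 and Col4a2 share cannot be assigned to either gene.

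The sequences are read 5′ to 3′ on the strand of the gene named last for the first pair and of the gene named first for the second, with capitals on matches to GGGCGG (the GC box), to CCAAT (the CCAAT box) or to their reverse complements CCGCCC and ATTGG. The window upstream of Col18a1 is shown as well, since this gene differed most between the genotype labels in its response to bleo.
Col4a1/Col4a2 shared first exon bases, chr8:11312805-11312826, plus strand: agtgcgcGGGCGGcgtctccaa
Col4a4/Col4a3 gap, chr1:82586850-82586920, minus strand: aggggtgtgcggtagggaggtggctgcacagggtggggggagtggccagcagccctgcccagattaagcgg
Col4a6 upstream, chrX:141474077-141474326, minus strand: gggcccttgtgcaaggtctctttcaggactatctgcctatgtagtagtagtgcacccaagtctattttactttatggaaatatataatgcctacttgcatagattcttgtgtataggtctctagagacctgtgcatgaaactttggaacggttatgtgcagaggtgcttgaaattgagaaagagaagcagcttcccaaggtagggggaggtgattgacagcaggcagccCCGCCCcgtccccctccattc
Col4a5 upstream, chrX:141475169-141475384, plus strand: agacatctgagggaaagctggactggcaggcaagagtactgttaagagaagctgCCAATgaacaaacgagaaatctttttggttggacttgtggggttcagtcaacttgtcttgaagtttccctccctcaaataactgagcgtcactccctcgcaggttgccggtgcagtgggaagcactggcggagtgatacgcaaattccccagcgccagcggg
Col18a1 upstream, chr10:77166549-77166780, minus strand: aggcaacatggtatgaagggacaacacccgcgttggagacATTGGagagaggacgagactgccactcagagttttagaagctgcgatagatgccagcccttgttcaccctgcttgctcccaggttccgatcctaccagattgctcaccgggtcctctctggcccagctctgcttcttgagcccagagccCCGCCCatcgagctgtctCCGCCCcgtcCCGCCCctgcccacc

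Of the 32851 promoter windows of RefSeq genes on the same build, 35.7% held a GC box, 37.4% a CCAAT box, 13.6% TATAAA and 7.81% TGANTCA, counting both strands. The GC content of the printed stretches was 72.7% for the bases shared by Col4a1 and Col4a2, 69.0% for the Col4a4/Col4a3 gap, 47.6% upstream of Col4a6, 52.3% upstream of Col4a5 and 60.8% upstream of Col18a1. In the RefSeq windows, Col4a2 had 3 GC boxes and Col4a1 had 1, each with 1 CCAAT box, and the GC box in the shared bases is counted for both. Col4a5 had 1 of each, the GC box lying past the printed stretch, Col4a6 had 1 GC box with none of CCAAT, and the upstream window of Col18a1 had 3 GC boxes and 1 CCAAT box. No match to these 4 motifs was found in the windows of Col4a4 and Col15a1 or in the window of the inner start of Col18a1. No window was available for Col4a3. TATAAA and TGANTCA matched in none of the members' windows. These are matches of letters and say nothing of a factor bound there.

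Col4a1 and Col4a2 were the chains with the highest levels per length in every group. Col4a1 had 3226, 3286 and 3202 normalised counts in the WT vehicle libraries, 3395, 3349 and 3440 in WT bleo, 3361, 3316 and 3425 in Pear1-/- vehicle, and 5684, 5880 and 5986 in Pear1-/- bleo. The 3 Pear1-/- bleo libraries lay above all others, and the other 3 groups spanned a narrow band in which WT bleo and Pear1-/- vehicle overlapped. By edgeR's quasi-likelihood test, the bleo response of Col4a1 in WT was a log2 fold change of 0.08 (95% interval -0.04 to 0.20, adjusted p = 0.22), which did not pass. Without WT vehicle replicate 2 it was 0.16 and passed (adjusted p = 0.00631). Under the Pear1-/- label Col4a1 rose with bleo by 0.80 in log2 units (SE, the standard error, 0.056, adjusted p = 1.16e-08), and it was higher than in WT bleo by 0.77 (SE 0.056, adjusted p = 3.6e-08).

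Col4a2 had 1637, 1535 and 1619 normalised counts in WT vehicle, 2114, 2186 and 2214 in WT bleo, 1464, 1458 and 1603 in Pear1-/- vehicle, and 3845, 3945 and 3873 in Pear1-/- bleo. The vehicle groups overlapped, both bleo groups lay above them, and the bleo groups did not overlap. Unlike Col4a1, Col4a2 passed the test in WT bleo against WT vehicle, higher by 0.45 in log2 units (SE 0.066, adjusted p = 2.17e-05). In Pear1-/- bleo against Pear1-/- vehicle it rose by 1.37 (SE 0.067, adjusted p = 1.6e-10), and against WT bleo it was higher by 0.83 (SE 0.066, adjusted p = 8.97e-08). The difference of the bleo responses between the genotype labels, tested as an interaction, was 0.72 for Col4a1 (SE 0.080, adjusted p = 6.5e-06) and 0.92 for Col4a2 (SE 0.093, adjusted p = 3.06e-06).

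Because the first exons overlap and the products join in a common trimer, the ratio of the Col4a1 to the Col4a2 count was taken within each library, where it does not depend on library size. It was 1.97, 2.14 and 1.98 in WT vehicle and 2.30, 2.27 and 2.14 in Pear1-/- vehicle, against 1.61, 1.53 and 1.55 in WT bleo and 1.48, 1.49 and 1.55 in Pear1-/- bleo. All 6 bleo libraries lay below all 6 vehicle libraries, whereas the genotype labels overlapped in vehicle and in bleo. An exact permutation test of the log2 ratio, two-sided, gave p = 0.1 for each bleo comparison, the smallest that 3 libraries against 3 allow, and p = 0.2 for each genotype comparison (0.2 for all 4 after adjustment over the 4).

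The pair on chromosome X, Col4a5 and Col4a6, fell with bleo. Col4a5, whose chain enters both of the rarer trimers, had 734.9, 705.2 and 770.5 normalised counts in WT vehicle, 288.4, 299.8 and 251.1 in WT bleo, 732.9, 717.1 and 701.7 in Pear1-/- vehicle, and 231.8, 212.3 and 208.7 in Pear1-/- bleo. The vehicle groups overlapped, and the bleo groups lay below them without overlapping each other. Its log2 fold change with bleo was -1.39 in WT (SE 0.080, adjusted p = 7.76e-10) and -1.72 in Pear1-/- (SE 0.081, adjusted p = 1.19e-10). Pear1-/- bleo stood below WT bleo, at -0.37 in log2 units (SE 0.084, adjusted p = 0.00197). The interaction was -0.33 (SE 0.11, adjusted p = 0.0324), which DESeq2 put at adjusted p = 0.0591 and which did not pass when any of 5 libraries was left out.

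Col4a6, the partner of Col4a5 in the trimer of smooth muscle and skin, fell furthest. It had 505.7, 446.5 and 449.9 normalised counts in WT vehicle, 82.66, 92.80 and 93.14 in WT bleo, 421.4, 390.6 and 426.7 in Pear1-/- vehicle, and 45.29, 49.00 and 52.43 in Pear1-/- bleo. No 2 groups overlapped, and from highest to lowest came the vehicle groups, WT first, and then the bleo groups, WT first again. Its log2 fold change with bleo was -2.37 in WT (SE 0.093, adjusted p = 8.67e-12) and -3.07 in Pear1-/- (SE 0.10, adjusted p = 2.01e-12). The genotype difference in bleo was -0.88 (SE 0.12, adjusted p = 1.85e-05), and the interaction was -0.70 (SE 0.14, adjusted p = 0.00134), which limma on variance-stabilised values put at adjusted p = 0.098. The ratio of Col4a5 to Col4a6 counts was 1.58 ± 0.13 (SD, n = 3) in WT vehicle and 1.74 ± 0.096 in Pear1-/- vehicle, against 3.14 ± 0.40 in WT bleo and 4.48 ± 0.58 in Pear1-/- bleo. Every bleo library exceeded every vehicle library in this ratio, and every Pear1-/- bleo library exceeded every WT bleo library (exact permutation p = 0.1 for each of these 3 comparisons, adjusted p = 0.133 over 44 ratio comparisons chosen after the data were seen).

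Col4a3 and Col4a4, which pair with Col4a5 in the alveolar trimer, were scarce in these cells. They were read from 17 to 102 and from 15 to 168 raw counts per library, so their values carry more counting error than those of the other 6 genes. Col4a3 had 117.6, 71.03 and 116.8 normalised counts in WT vehicle, 50.51, 46.91 and 66.82 in WT bleo, 79.54, 70.50 and 52.38 in Pear1-/- vehicle, and 29.30, 14.61 and 25.74 in Pear1-/- bleo. WT vehicle replicate 2 fell within the range of Pear1-/- vehicle, neighbouring groups overlapped down to WT bleo, and Pear1-/- bleo lay below all others. The log2 fold change of Col4a3 was -0.88 with bleo in WT (SE 0.24, adjusted p = 0.0051), -1.54 in Pear1-/- (SE 0.28, adjusted p = 0.000224) and -1.25 in Pear1-/- bleo relative to WT bleo (SE 0.29, adjusted p = 0.00232). The interaction, -0.67, did not pass (95% interval -1.47 to 0.13, adjusted p = 0.18).

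Col4a4 had 155.2, 140.0 and 161.4 normalised counts in WT vehicle, 43.17, 48.95 and 46.57 in WT bleo, 159.1, 145.6 and 127.7 in Pear1-/- vehicle, and 26.64, 18.91 and 14.30 in Pear1-/- bleo. The vehicle groups overlapped, and each bleo group stood apart below them. The log2 response to bleo was -1.71 in WT (SE 0.16, adjusted p = 2.29e-07) and -2.84 in Pear1-/- (SE 0.18, adjusted p = 3.71e-09). Relative to WT bleo, the log2 level in Pear1-/- bleo differed by -1.21 (SE 0.21, adjusted p = 0.000216), and the interaction was -1.13 (SE 0.25, adjusted p = 0.00273). The Col4a3 to Col4a4 ratio was 0.663 ± 0.14 (SD, n = 3) and 0.465 ± 0.048 in the vehicle groups of WT and Pear1-/-, and 1.19 ± 0.24 and 1.22 ± 0.53 in the bleo groups, so it was higher in bleo under both labels (exact permutation p = 0.1 for each, adjusted p = 0.133). Its values in Pear1-/- bleo ranged from 0.773 to 1.8. In vehicle every Pear1-/- library lay below every WT library, with the same exact and adjusted p. There WT vehicle replicate 2, at 0.507, lay just above the highest Pear1-/- vehicle library, at 0.5.

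Col15a1 and Col18a1, the collagens of the outer face, went separate ways. Col15a1 had 281.4, 376.5 and 295.4 normalised counts in WT vehicle, 173.6, 185.6 and 186.3 in WT bleo, 378.8, 380.4 and 401.6 in Pear1-/- vehicle, and 127.9, 159.0 and 150.6 in Pear1-/- bleo. No groups overlapped, but WT vehicle replicate 2, at 376.5, lay just under the lowest Pear1-/- vehicle library, at 378.8. The log2 fold change with bleo was -0.80 in WT (SE 0.11, adjusted p = 1.39e-05) and -1.40 in Pear1-/- (SE 0.11, adjusted p = 3.88e-08), with an interaction of -0.60 (SE 0.16, adjusted p = 0.00711). The genotype difference in bleo was -0.33 (SE 0.12, adjusted p = 0.0303), the least firm of the genotype differences in bleo. That call was lost in 8 of the 12 fits that each left out a library, with adjusted p up to 0.189 without Pear1-/- bleo replicate 1, with limma on variance-stabilised values (adjusted p = 0.0582) and with no filter on low counts (adjusted p = 0.0741).

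Col18a1, the source of endostatin, had 1376, 1020 and 1290 normalised counts in WT vehicle, 608.9, 569.0 and 556.8 in WT bleo, 1057, 919.3 and 1059 in Pear1-/- vehicle, and 1114, 1203 and 1190 in Pear1-/- bleo. WT bleo lay below all other libraries, and Pear1-/- bleo fell inside the range of WT vehicle and above that of Pear1-/- vehicle. The log2 response to bleo was -1.08 in WT (SE 0.10, adjusted p = 2.4e-07). In Pear1-/- it was 0.21 and did not pass (95% interval 0.00080 to 0.42, adjusted p = 0.0747), although it passed without WT vehicle replicate 2, a library of neither group, at 0.20 (adjusted p = 0.00402), with no filter, at 0.26 (0.0433), and in a fit of the compared groups only, at 0.20 (0.00774). Col18a1 was 2.003-fold higher in Pear1-/- bleo than in WT bleo (adjusted p = 1.21e-06), and the interaction of 1.29 (SE 0.14, adjusted p = 6.67e-06) was the largest of the 8 genes.

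**Figure D2:**
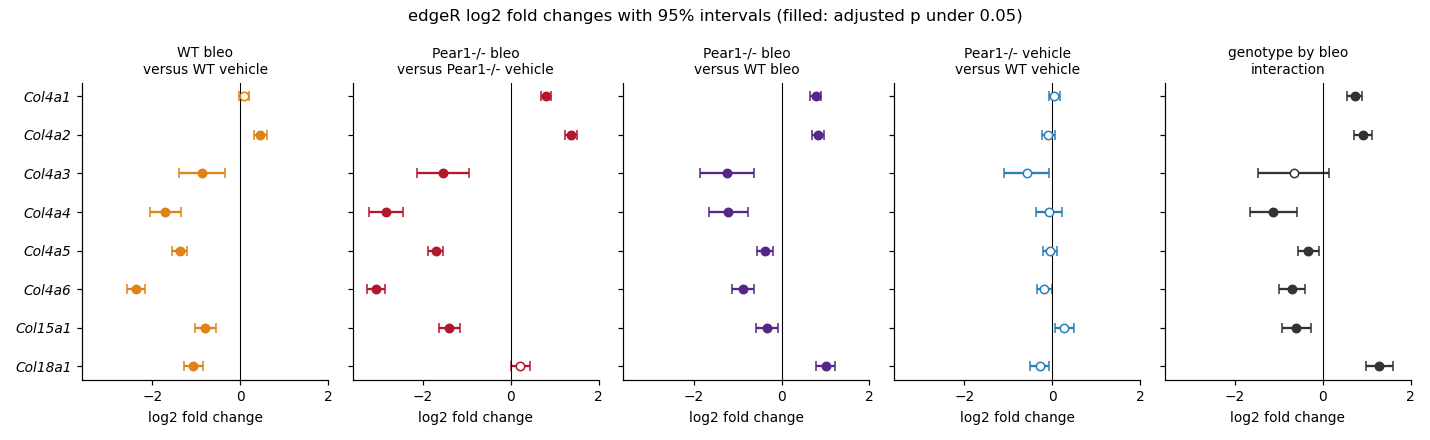
Log2 fold changes of the 8 genes (horizontal axes) in the 4 comparisons and the interaction, with 95% intervals from edgeR; filled points passed at adjusted p under 0.05. In Pear1-/- bleo against WT bleo Col4a1, Col4a2 and Col18a1 lie right of 0 and the other 5 lie left of it, and between the vehicle groups no point is filled.

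All 8 genes passed the filter on low counts that left 17418 genes for testing. Between WT bleo and WT vehicle 1 of the 8 was higher and 6 were lower at adjusted p under 0.05, against 31.4% higher and 36.6% lower among all genes tested. For Pear1-/- bleo against Pear1-/- vehicle, 2 were higher and 5 lower (28.9% and 33.4% of all genes). In the comparison of the bleo groups all 8 passed, 3 higher and 5 lower, where 22.1% and 23.9% of all genes did. The interaction was positive for 3 and negative for 4 (17.9% and 19.1% of all genes). A large share of all genes passed in these comparisons, so passing alone sets no member apart. The median log2 fold change of the 8 was -0.975 with bleo in WT and -1.47 in Pear1-/-, against -0.071 and -0.048 over all genes tested.

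With a fold above 2 required as well, 4 genes were called in WT bleo against WT vehicle, namely Col4a4, Col4a5, Col4a6 and Col18a1, all lower, and none higher (23.5% and 10.5% of all genes). In Pear1-/- bleo against Pear1-/- vehicle Col4a2 was called higher, and Col4a3, Col4a4, Col4a5, Col4a6 and Col15a1 lower (8.38% and 19.4% of all genes). Between the bleo groups, Col18a1 was called higher and Col4a3 and Col4a4 lower (6.26% and 8.76% of all genes). For the interaction Col18a1 and Col4a4 passed this limit, in opposite directions (8.61% and 7.06% of all genes). In the comparison of the bleo groups Col18a1 stood at 2.003-fold, just past that limit, and Col4a6 at 1.85-fold lower just short of it. The Col18a1 difference fell short of the limit in 9 of the 12 fits that each left out a library, with log2 fold changes from 0.97 to 0.9993, among them 0.99 without WT vehicle replicate 2. With bleo in WT, Col4a3 passed the limit without WT vehicle replicate 2, at a log2 fold change of -1.02 (-0.88 with it, adjusted p = 5.18e-06 without it, in a fit where 45% of all genes passed), and Col18a1 fell short of it without WT vehicle replicate 1, at -0.98, so that such fits called from 3 to 5 genes.

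Between the vehicle groups none of the 8 passed edgeR's test, and over all genes 0.855% were called higher and 3.65% lower in Pear1-/- vehicle. At an unadjusted p under 0.05 were 4 of the 8 and 31.6% of all genes tested. DESeq2 and limma also called 0 of the 8, with 3 and 4 of them at an unadjusted p under 0.05, where 27.4% and 33.5% of all genes were. After adjustment DESeq2 and limma called 1484 and 1673 genes of the whole table, against 784 by edgeR. The estimates ran from -0.58 for Col4a3 (95% interval -1.09 to -0.076, adjusted p = 0.114) to 0.27 for Col15a1 (95% interval 0.053 to 0.50, adjusted p = 0.0954), intervals for single genes that exclude 0 although neither gene passed after adjustment. Without WT vehicle replicate 2 edgeR called 4 genes in this comparison. Col4a1 was then higher by 0.13 (adjusted p = 0.0243) and Col15a1 by 0.49 (adjusted p = 3.21e-05), while Col4a3 was at -0.72 (adjusted p = 0.000912) and Col18a1 at -0.33 (adjusted p = 6.53e-05). In that fit 25.5% of all genes tested were called higher and 29.7% lower, or 55.2% in all, so 4 of 8 is near the share of all genes.

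Levels of different chains were compared per kilobase of exon, using the union of annotated exons of each gene. Per kilobase, the 6 type IV chains summed to between 853 and 879 normalised counts in WT vehicle, between 841 and 876 in Pear1-/- vehicle and between 837 and 856 in WT bleo, but to between 1390 and 1430 in Pear1-/- bleo. The sum thus lay in 1 band in 3 groups, but its makeup differed. Col4a1 and Col4a2 together held 77.8% ± 0.84 (SD, n = 3) of it in WT vehicle and 79.1% ± 0.80 in Pear1-/- vehicle against 92.6% ± 0.37 in WT bleo and 97.0% ± 0.23 in Pear1-/- bleo. Col4a5 and Col4a6 together held 19.4% ± 0.46 and 18.5% ± 0.44 in the vehicle groups, 6.26% ± 0.47 in WT bleo and 2.73% ± 0.15 in Pear1-/- bleo. Col4a3 and Col4a4 together held 2.83% ± 0.39 and 2.38% ± 0.37 in vehicle and 1.16% ± 0.12 and 0.299% ± 0.085. For each of these 3 pairs the bleo libraries lay outside the range of the vehicle libraries, and the bleo groups did not overlap.

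**Figure D3:**
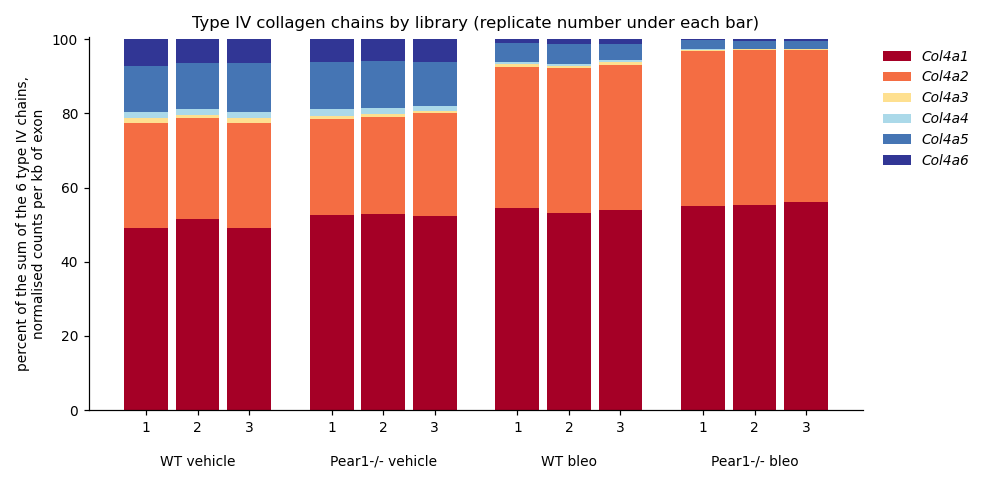
Share of each chain (vertical axis, percent of the per-kilobase sum of the 6 type IV chains) in each library, with 1 bar per library and 3 per group. Col4a5 and Col4a6 (blues) take 19.4% of the sum in WT vehicle and 2.73% in Pear1-/- bleo, and Col4a1 and Col4a2 (red and orange) take 77.8% and 97.0%.

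Pdgfra, the gene of the protein used for sorting, itself fell with bleo, from 4565 ± 325 to 1360 ± 29.9 normalised counts in WT and from 4165 ± 39.1 to 2392 ± 18.8 in Pear1-/- (mean ± SD, n = 3). The collagens were therefore also set against the Pdgfra count of the same library, a ratio chosen after the data were seen. Col4a1 was 0.712 ± 0.062 of Pdgfra in WT vehicle, 2.50 ± 0.026 in WT bleo, 0.809 ± 0.021 in Pear1-/- vehicle and 2.45 ± 0.070 in Pear1-/- bleo. The bleo groups overlapped in this ratio. Those of Col4a2 did as well, at 0.350 ± 0.014, 1.60 ± 0.034, 0.362 ± 0.023 and 1.63 ± 0.034 in the same order. In normalised counts the log2 fold changes between the bleo groups were 0.77 for Col4a1 and 0.83 for Col4a2, beside 0.80 for Pdgfra (SE 0.067).

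On the log2 scale this ratio takes the change of Pdgfra, -1.74 with bleo in WT, -0.80 in Pear1-/- and 0.80 between the bleo groups, away from every gene alike. It therefore adds no evidence on the direction of a gene's change, and the values are given as a description only. Col4a5 was 0.206 ± 0.023 of Pdgfra in WT bleo and 0.0910 ± 0.0049 (SD, n = 3) in Pear1-/- bleo, Col4a6 was 0.0658 ± 0.0041 and 0.0204 ± 0.0015, Col4a4 was 0.0340 ± 0.0023 and 0.00834 ± 0.0026, and Col18a1 was 0.425 ± 0.026 and 0.489 ± 0.022. Of the 8 genes, Col4a6 alone had a lower ratio in every WT bleo library than in every WT vehicle library, having fallen by more than Pdgfra.

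**Figure D4:**
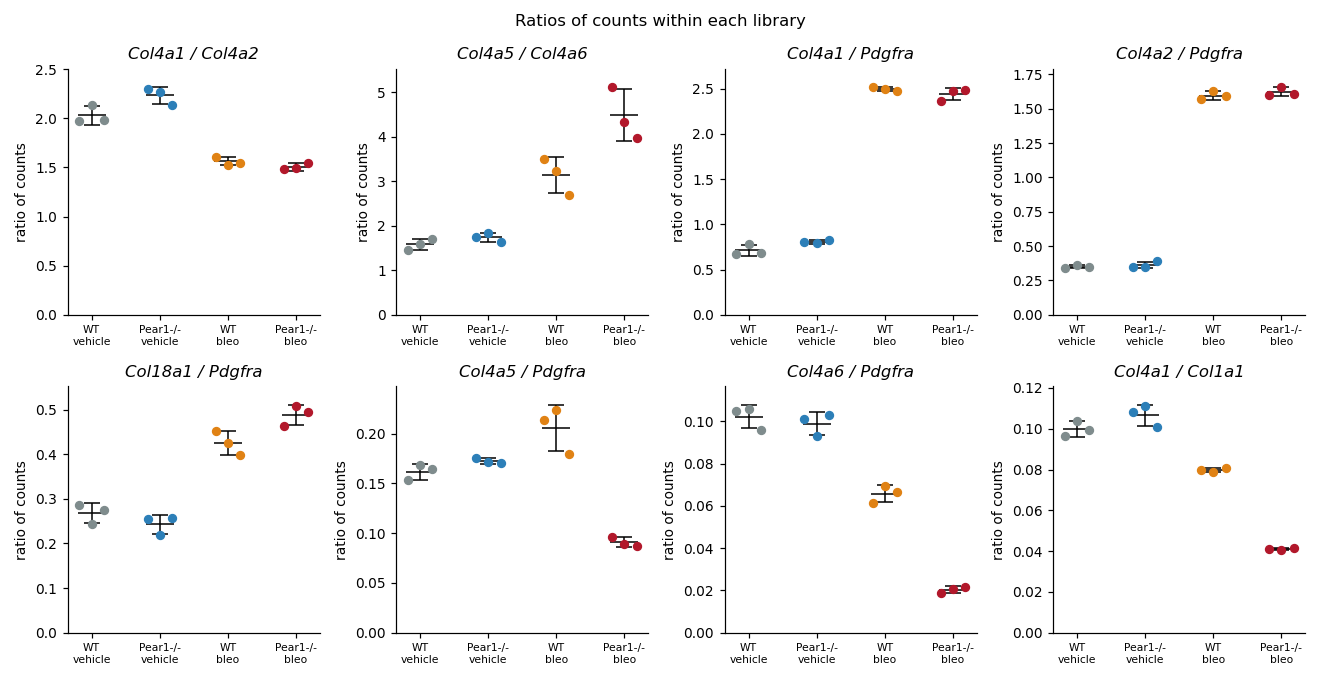
Ratios of read counts within a library (vertical axes, no unit, starting at 0) for 8 gene pairs in the 4 groups, with 1 point per library and bars for mean and SD. Col4a1 and Col4a2 relative to Pdgfra overlap between WT bleo and Pear1-/- bleo, near 2.5 and 1.6, whereas Col4a5 and Col4a6 relative to Pdgfra are lower in every Pear1-/- bleo library than in any other.

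Type IV collagen does not stand alone in a basement membrane, and a list of 22 partners was examined beside it, made of laminin chains, nidogens, perlecan, agrin and smaller linkers. With bleo in WT, 1 of the 22 rose and 18 fell, where 31.4% and 36.6% of all genes tested did (median log2 fold change -1.17 against -0.071). The gene that rose was Lama5, a laminin chain of alveolar basement membranes, from 200.8 ± 9.87 to 271.9 ± 14.3 normalised counts (SD, n = 3). Lamc3, a further laminin chain, fell from 1416 ± 62.3 to 282.4 ± 19.6, and Smoc1, a matrix calcium-binding protein, from 359.5 ± 39.6 to 48.26 ± 4.41. In Pear1-/- the bleo comparison gave 4 higher and 13 lower (28.9% and 33.4% of all genes, medians -0.61 and -0.048). Between Pear1-/- bleo and WT bleo 12 were higher and 3 lower (22.1% and 23.9% of all genes, medians 0.35 and -0.013). Nid2, which links laminin to type IV collagen, was the partner with the largest rise in the last comparison, at 559.8 ± 41.7 against 140.6 ± 9.14 normalised counts, or 1.98 in log2 units (SE 0.13, adjusted p = 1.26e-08). Ntn4 and Lamb3 were lower there, at mean normalised counts of 4.53 against 16.08 and 45.24 against 111.5. Between the vehicle groups 3 partners were lower in Pear1-/-: Npnt, at 2605 ± 87.5 against 5247 ± 2130 with WT vehicle libraries from 2790 to 6607, Lama3 and Lama1, the last with overlapping groups. Over all genes 3.65% were lower there. These 3 calls were lost in the other 11 fits that left out a library (adjusted p from 0.051 to 0.189), and in those fits no gene of the whole table passed edgeR's test in this comparison, with between 2955 and 6917 genes at an unadjusted p under 0.05. The fit of the compared groups only also called 0, with 3091 genes at an unadjusted p under 0.05. Without WT vehicle replicate 2, whose levels were the lowest of WT vehicle in all 3 genes, the log2 fold changes were -1.25 for Npnt (adjusted p = 2.69e-24), -1.85 for Lama3 (3.61e-10) and -3.02 for Lama1 (1.99e-12), and 7 partners were then called higher and 6 lower, where 25.5% and 29.7% of all genes were.

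Chains must be hydroxylated, folded, carried out of the cell and crosslinked, and 16 of 17 listed genes for these steps could be tested, Mia2 being too low. With bleo in WT 4 rose and 5 fell, near the 31.4% and 36.6% of all genes, and without WT vehicle replicate 2 the counts were 8 and 5 (31.7% and 44.7% of all genes). In Pear1-/- 11 rose and 3 fell (28.9% and 33.4% of all genes). Pear1-/- bleo against WT bleo gave 10 higher and 2 lower (22.1% and 23.9% of all genes), with a median log2 fold change of 0.62 against -0.013 for all genes tested. P4ha3, a subunit of a prolyl hydroxylase, had 1282 ± 15.6 against 379.3 ± 14.0 normalised counts (SD, n = 3), and Pxdn, the peroxidase that forms the sulfilimine crosslinks of type IV collagen, had 1537 ± 33.2 against 537.6 ± 13.8. P3h2, a prolyl hydroxylase known for acting on type IV chains, was lower there, at a mean of 7.44 against 34.73 normalised counts, or -2.21 in log2 units (SE 0.29, adjusted p = 1.75e-05). P4ha3 was thus among the 10 listed genes that were higher, and P3h2 among the 2 that were lower.

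Receptors for basement membranes and proteases that cut them moved in both directions. Of 12 receptors, 6 were higher and 3 lower in Pear1-/- bleo than in WT bleo (22.1% and 23.9% of all genes), and 2 rose and 9 fell with bleo in WT (31.4% and 36.6%). Itga6, a laminin-binding integrin chain, had mean normalised counts of 608.5 in WT bleo and 172.6 in Pear1-/- bleo, after 104.1 in WT vehicle. Itga2, a collagen-binding chain, had 11.54, 39.59 and 33.71 in the same groups, so it moved the other way from Itga6. Of the 11 proteases tested, Mmp7 being too low, 4 were higher and 4 lower in Pear1-/- bleo than in WT bleo, against the same 22.1% and 23.9%. Higher in mean in Pear1-/- bleo than in WT bleo were Mmp2 (8968 against 6088), Mmp9 (200.9 against 87.95), Mmp14 (7434 against 4139) and Bmp1 (1151 against 579.3). Mmp12, a protease of macrophages, had means of 15840 in WT bleo and 3679 in Pear1-/- bleo, after 1101 in WT vehicle. Ctss, a lysosomal protease of antigen-presenting cells, had 2539 in WT vehicle and 32900 in WT bleo, and Elane was at 0 in both bleo groups after means of 10.38 in WT vehicle and 11.16 in Pear1-/- vehicle.

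The 6 fibrillar collagen genes, which build the fibres of scar tissue rather than basement membranes, gave the comparison for size. All 6 were more than 2-fold higher in Pear1-/- bleo than in WT bleo (6.26% of all genes were), with a median log2 fold change of 1.52 against -0.013, and Col1a1 had 142200 against 42470 normalised counts. Col4a1 and Col4a2 were higher there by 0.77 and 0.83 on the log2 scale. The ratio of Col4a1 to Col1a1 counts was accordingly 0.0799 ± 0.0010 (SD, n = 3) in WT bleo and 0.0411 ± 0.00052 in Pear1-/- bleo, against 0.10 ± 0.0040 in WT vehicle and 0.107 ± 0.0052 in Pear1-/- vehicle. Each bleo group lay below the vehicle groups, and the bleo groups did not overlap (exact permutation p = 0.1, adjusted p = 0.133).

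Other cell types of the lung also make these collagens, so summed marker levels are given beside them. The libraries held the mesenchymal markers at 126300 ± 12800 summed normalised counts in WT vehicle (SD, n = 3), 108800 ± 512 in WT bleo, 142700 ± 1570 in Pear1-/- vehicle and 291900 ± 5040 in Pear1-/- bleo, and all 8 genes of the list were detected. The high sum in Pear1-/- bleo came from Col1a1, Col1a2 and Col3a1. The other 5 genes summed to 36080 ± 12900 and 52230 ± 1670 in the vehicle groups of WT and Pear1-/-, and to 10950 ± 123 and 13800 ± 111 in the bleo groups, with Dcn, a fibroblast proteoglycan gene, at means of 26520, 41210, 6958 and 7710. Leukocyte markers summed to between 17670 and 23880 in the vehicle libraries, between 103600 and 105300 in WT bleo and between 46740 and 47920 in Pear1-/- bleo. In Pear1-/- bleo against WT bleo 7 of the 8 leukocyte markers were lower (23.9% of all genes), and in WT bleo against WT vehicle 6 of 8 were higher (31.4%). The leukocyte sum was thus higher in WT bleo, where 6 of the collagens had fallen and Col4a2 had risen. Between the bleo groups it was lower in Pear1-/-, where Col4a1, Col4a2 and Col18a1 were higher and the other 5 lower. Its part in the collagen values was not tested.

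Endothelial cells and pericytes make much of the Col4a1, Col4a2, Col15a1 and Col18a1 of vessels. Endothelial markers summed to 4116 ± 318 in WT vehicle (SD, n = 3), 2403 ± 54.1 in WT bleo, 4517 ± 225 in Pear1-/- vehicle and 2422 ± 120 in Pear1-/- bleo, and Pecam1 had 622.6 ± 30.4 and 598.3 ± 13.5 normalised counts in the bleo groups. The bleo groups overlapped in the endothelial sum, but single markers moved both ways. In Pear1-/- bleo against WT bleo, 1 of the 8 endothelial markers was higher and 2 were lower (22.1% and 23.9% of all genes). Tek and Cldn5 had higher means there, at 301.4 against 236.8 and 546.8 against 438.9 normalised counts. Vwf and Cdh5 had lower means, at 423.4 against 570.4 and 111.6 against 139.6. Pericyte and smooth muscle markers summed to 2642 ± 30.8 in WT bleo and 6470 ± 190 in Pear1-/- bleo, after 3707 ± 25.9 and 3835 ± 208 in vehicle, with 4 of 8 markers higher and 2 lower between the bleo groups (22.1% and 23.9% of all genes). Des and Pdgfrb, which fibroblasts also express, carried most of that difference, at means of 3335 against 920.6 and 2304 against 1062 normalised counts. Cnn1, Cspg4 and Mcam also had higher means in Pear1-/- bleo, at 200 against 75.86, 205.4 against 158.5 and 248 against 183.6. Rgs5 was at 34.47 in both bleo groups, and Myh11 (94.11 against 123.6) and Notch3 (49.46 against 83.43) were the 2 that were lower. This sum stood highest where Col4a1, Col4a2 and Col18a1 were high and Col4a6 was low, and its part in those values was not tested.

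Alveolar epithelium is a known source of the trimer of Col4a3, Col4a4 and Col4a5. Alveolar type 2 and general epithelial markers summed to between 17350 and 24750 in the vehicle libraries, between 8906 and 9103 in WT bleo and between 2964 and 3122 in Pear1-/- bleo. Of the 6 genes, the alveolar type 2 genes Sftpc, Sftpb and Lamp3 were lower in bleo under both labels and lowest in Pear1-/- bleo, as Col4a3 to Col4a6 were, and Sftpc and Sftpb made up most of the sum. The general epithelial markers did not follow it. Cdh1 went the other way, at means of 155 and 160.8 in the vehicle groups, 288.1 in WT bleo and 383 in Pear1-/- bleo, and Krt8 was lower in bleo but did not pass the test between the bleo groups (164.9 and 173.7, adjusted p = 0.707). Epcam had 149.6 ± 25.0 and 191.5 ± 8.15 normalised counts (SD, n = 3) in WT vehicle and bleo, and 215.4 ± 16.6 and 156.6 ± 7.42 in Pear1-/- vehicle and bleo, an order unlike that of the sum. Alveolar type 1 markers summed to between 1633 and 1821 in all 12 libraries, but the 5 genes of that list did not move alike. Ager and Rtkn2 were lower in bleo under both labels and lowest in Pear1-/- bleo, like Col4a3 to Col4a6, Ager at 263.2 against 578.9 normalised counts in WT bleo (log2 fold change -1.15, adjusted p = 2.74e-07) and Rtkn2 at 23.17 against 37.67 (-0.71, adjusted p = 0.0145). Pdpn, which is also on the mesenchymal list, was higher, at 1352 against 1017, as was the scarce Hopx, at 18.76 against 2.51, and Aqp5 did not pass. Mesothelial markers summed to 283.8 ± 28.8, 77.58 ± 7.16, 244.4 ± 15.3 and 124.7 ± 11.0 in the same order. No marker of any of these lists was at 0 in all libraries of a group, and the part of any of these cells in the collagen values was not tested.

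**Figure D5:**
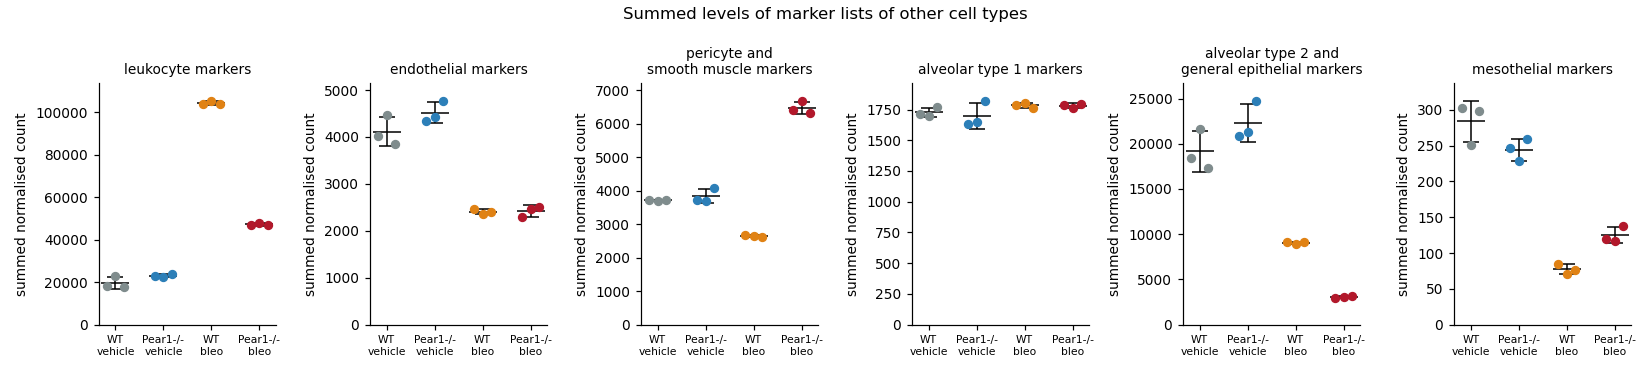
Summed normalised counts (vertical axes, starting at 0) of 6 lists of markers of other lung cell types in the 4 groups, with 1 point per library and bars for mean and SD of 3 libraries. Leukocyte markers are highest in WT bleo (104200 on average), pericyte and smooth muscle markers in Pear1-/- bleo (6470), and alveolar type 2 and general epithelial markers are lowest in Pear1-/- bleo (3048).

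Among themselves the 8 genes were compared by the root mean square difference of their log2 CPM over the 12 libraries, after each gene was centred on its mean, so that 0 means the same pattern. The closest pairs were Col4a1 with Col4a2 (0.245), Col4a5 with Col15a1 (0.307) and Col4a4 with Col4a6 (0.348), and the farthest was Col4a2 with Col4a6 (1.90). The head-to-head neighbours Col4a5 and Col4a6 differed by 0.61 and Col4a3 and Col4a4 by 0.623, so only the pair Col4a1 and Col4a2 was the closest of its members. Among genes whose log2 CPM averaged 3 or more, the nearest to Col4a1 were Kdelr2 (0.069), Lmna (0.071) and Arhgap1 (0.0737). The nearest to Col4a2 were Rasl11a (0.0757), the laminin gene Lama5 (0.0882) and Mmd (0.0902). For Col4a6 they were the laminin gene Lamc3 (0.10), Efemp1 (0.145) and Sec14l3 (0.178), and for Col18a1 they were Eml1 (0.0812), the elastin crosslinking gene Loxl1 (0.0861) and Mxra8 (0.0879). Col4a5 was nearest to Fmo5 (0.0967), Syne2 and Pde7b, and Col15a1 to Hist3h2a (0.0874), Atp1b1 and Ppp1r16b. The 2 scarce genes had no neighbour as close, the nearest being A430078G23Rik for Col4a3 (0.318) and Arhgap20 for Col4a4 (0.202). The 12 libraries fall into 4 groups, so these values are descriptions of likeness over those groups.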

How the data were processed

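Libraries of Pdgfra+ cells, sorted from mouse lungs by flow cytometry, were prepared with a SMART-Seq v4 kit without strand information. Alignment by the authors used HISAT2 and GRCm38 (mm10). The counting program is not given in the sources used here. The authors deposited raw counts per gene, and a second table whose unit is taken here as a signal: the deposited values equal the counts divided by DESeq2 size factors. They are called normalised counts here, and levels and SDs use them. Tests used the raw counts.

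Groups came from the labels. edgeR 4.0.16 in R 4.3.3 was used with TMM normalisation, filterByExpr, 1 mean per group over 12 libraries and the two-sided quasi-likelihood F test. Adjusted p are Benjamini-Hochberg over the 17418 genes tested of 40760. A gene was called at adjusted p under 0.05, and separately also at a fold above 2, the criteria of the study, which used limma on variance-stabilised values. That test (limma 3.58.1), DESeq2 1.42.0, DESeq2 size factors in edgeR, library size only, no filter, the replicate number as a block, only the groups compared, and each library left out were tried. Ratios of counts were compared by exact permutation over libraries, two-sided. Scripts were tested on simulated data. Exon lengths and gene positions came from the GENCODE M21 annotation of GRCm38, motifs and promoter windows from RefSeq on GRCm38.p6.

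The 8 genes and all lists were chosen with earlier results of these data known. The 8 were always named. From each list, the 3 called genes with the largest change in a comparison could be named, as well as Pear1, Pdgfra, Ptprc, Pecam1, Epcam and Cspg4, and for likeness the 3 nearest genes. Lama5, the only partner that rose in WT, was named after its values were seen. So were Pdpn, Aqp5, Rgs5, Notch3, Mcam, Cdh1, Krt8, Vwf, Cdh5, Mmp2, Mmp14 and Bmp1. Between 6702948 and 10447101 reads were counted per library, which limits the precision of genes such as Col4a3 and Col4a4.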

Additional observations from a re-analysis of the deposited data

Results flagged for a closer look

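The response to bleo differed between the genotype labels, by the interaction term of edgeR's quasi-likelihood test with adjustment over all genes tested, in 7 of the 8 genes, and for each the log2 difference of responses is Pear1-/- minus WT. It was positive for Col4a1 (0.72), Col4a2 (0.92) and Col18a1 (1.29) and negative for Col4a4 (-1.13), Col4a5 (-0.33), Col4a6 (-0.70) and Col15a1 (-0.60). Of all genes tested, 17.9% passed the same test in the positive and 19.1% in the negative direction. In Col18a1 the responses had opposite signs, -1.08 in WT and 0.21 in Pear1-/-, the latter short of the threshold.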

How the results depend on the processing

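No called value of the 8 genes changed sign in any setting tried. Requiring a fold above 2, limma on variance-stabilised values, a scale that shrinks low counts, called 1 gene in WT bleo against WT vehicle (4 by edgeR), 3 in Pear1-/- bleo against Pear1-/- vehicle (6), 0 between the bleo groups (3) and 0 for the interaction (2). Over all genes tested these calls also fell, from 33.9% to 4.88%, 27.8% to 3.23%, 15% to 1.66% and 15.7% to 1.88%. Between the vehicle groups, where edgeR called 0, the fit with no filter called 1 (Col15a1), library size only called 2 (Col4a6 and Col18a1), where 13.8% and 11.2% of all genes were called (4.5% by edgeR with both), and fits leaving out 1 library called from 0 to 4, the 4 without WT vehicle replicate 2 (55.2% of all genes). The interaction of Col4a5 was lost with no filter (adjusted p = 0.0633), library size only (0.33), DESeq2 (0.0591), limma (0.0937) and 5 left-out libraries, WT vehicle replicate 1, WT bleo replicates 1 and 2 and Pear1-/- bleo replicates 2 and 3; the causes were not tested. Estimates that missed the threshold changed sign with library size only for Col4a1 (-0.020 with bleo in WT, -0.10 between the vehicle groups), with no filter between the vehicle groups for Col4a2 (0.010), Col4a4 (0.019) and Col4a5 (0.054), and with a library left out for Col4a4 (from -0.10 to 0.040) and Col4a5 (from -0.045 to 0.014). Library size only shifted the median of all genes between the vehicle groups by -0.147, and no filter shifted that of WT bleo against WT vehicle by 0.133. Same-numbered libraries of different groups did not deviate together (correlations between -0.293 and 0.0647), so the numbers were not taken to pair them. With a replicate block, 7, 7, 8, 0 and 7 of the 8 genes were called in the 4 comparisons and the interaction, as without it. Of all genes tested, 11685, 10688, 7789, 703 and 6147 were called with the block, against 11838, 10852, 8012, 784 and 6442 without it. Depth limits Col4a3 and Col4a4 most.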
